A study of Arabidopsis thaliana with 12 samples.

Results

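HY5 (AT5G11260) and HYH (AT3G17609) code for bZIP transcription factors of light signalling, and COP1 (AT2G32950), SPA1 (AT2G46340), SPA2 (AT4G11110), SPA3 (AT3G15354), SPA4 (AT1G53090) and DET1 (AT4G10180) code for proteins that keep such factors low in the dark. These 8 genes, of 27444 protein-coding genes on the nuclear chromosomes, were named by locus, and the binding of SOB3 around them was described. SOB3 is an AT-hook protein that restrains growth of the hypocotyl, the seedling stem. For each gene, every peak was taken that touched the gene, the 2 kb upstream of it or the 1 kb downstream of it, in each of 9 peak lists. The 18 merged sites found in this way, of 28285 in all, are the binding sites described here.

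In Arabidopsis, HY5 and its close homologue HYH bind promoters of light-regulated genes and promote development in the light. COP1 is a RING-type E3 ubiquitin ligase that forms complexes with the SPA proteins and marks HY5, HYH and other factors for degradation in darkness. Light acts through photoreceptors that inhibit the COP1-SPA complex, and DET1 acts beside it with COP10 and DDB1. The complex limits photomorphogenesis, and seedlings that lack its function have short hypocotyls in the dark.

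The plants were Columbia (Col-0) seedlings with the transgene ProSOB3::SOB3-GFP, in which the promoter of SOB3 drives a SOB3-GFP fusion, in the sob3-4 mutant. The daily cycle was 8 h of light and 16 h of darkness (short days), and seedlings were harvested whole at ZT4 (4 h after lights on, in the light) and ZT9 (9 h, in the dark) at an age of 5 days, and at ZT24 (the next dawn) at an age of 6 days. Chromatin bound by the fusion was recovered with a GFP antibody for ChIP-seq, in 3 biological replicates per time point, with 1 input (chromatin without precipitation) per time point. All groups carried the same transgene and mutation, no GFP-free plants were analysed here, and age and time cannot be told apart at ZT24. The ChIP came from whole seedlings, so a weaker peak cannot be told apart from a peak present in fewer cells.

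The 9 lists held 20988 to 24850 peaks. The lowest number belonged to replicate 3 of ZT9, which also had the lowest median fold enrichment (2.55, against up to 2.90 in the other lists). Fold enrichment is the ChIP read pileup at a peak's summit over the local background, as MACS2 gives it. It depends on the depth of a list, so each peak was also given its percentile within its own list, where 100 is the peak of highest fold. A gene was called bound at a time point if at least 2 of 3 replicates had a peak in its window. Of the 8 genes, 7 were bound at all 3 time points, all but DET1, while 61.3% of all genes were bound at all 3. HYH, SPA1, SPA3 and SPA4 had a peak in all 9 lists, which held for 52.4% of all genes. When peaks needed a −log10 q of 10 or more, only SPA1, SPA3 and SPA4 of the 8 genes remained bound at all 3 time points, beside 34.0% of all genes.

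**Figure D1:**
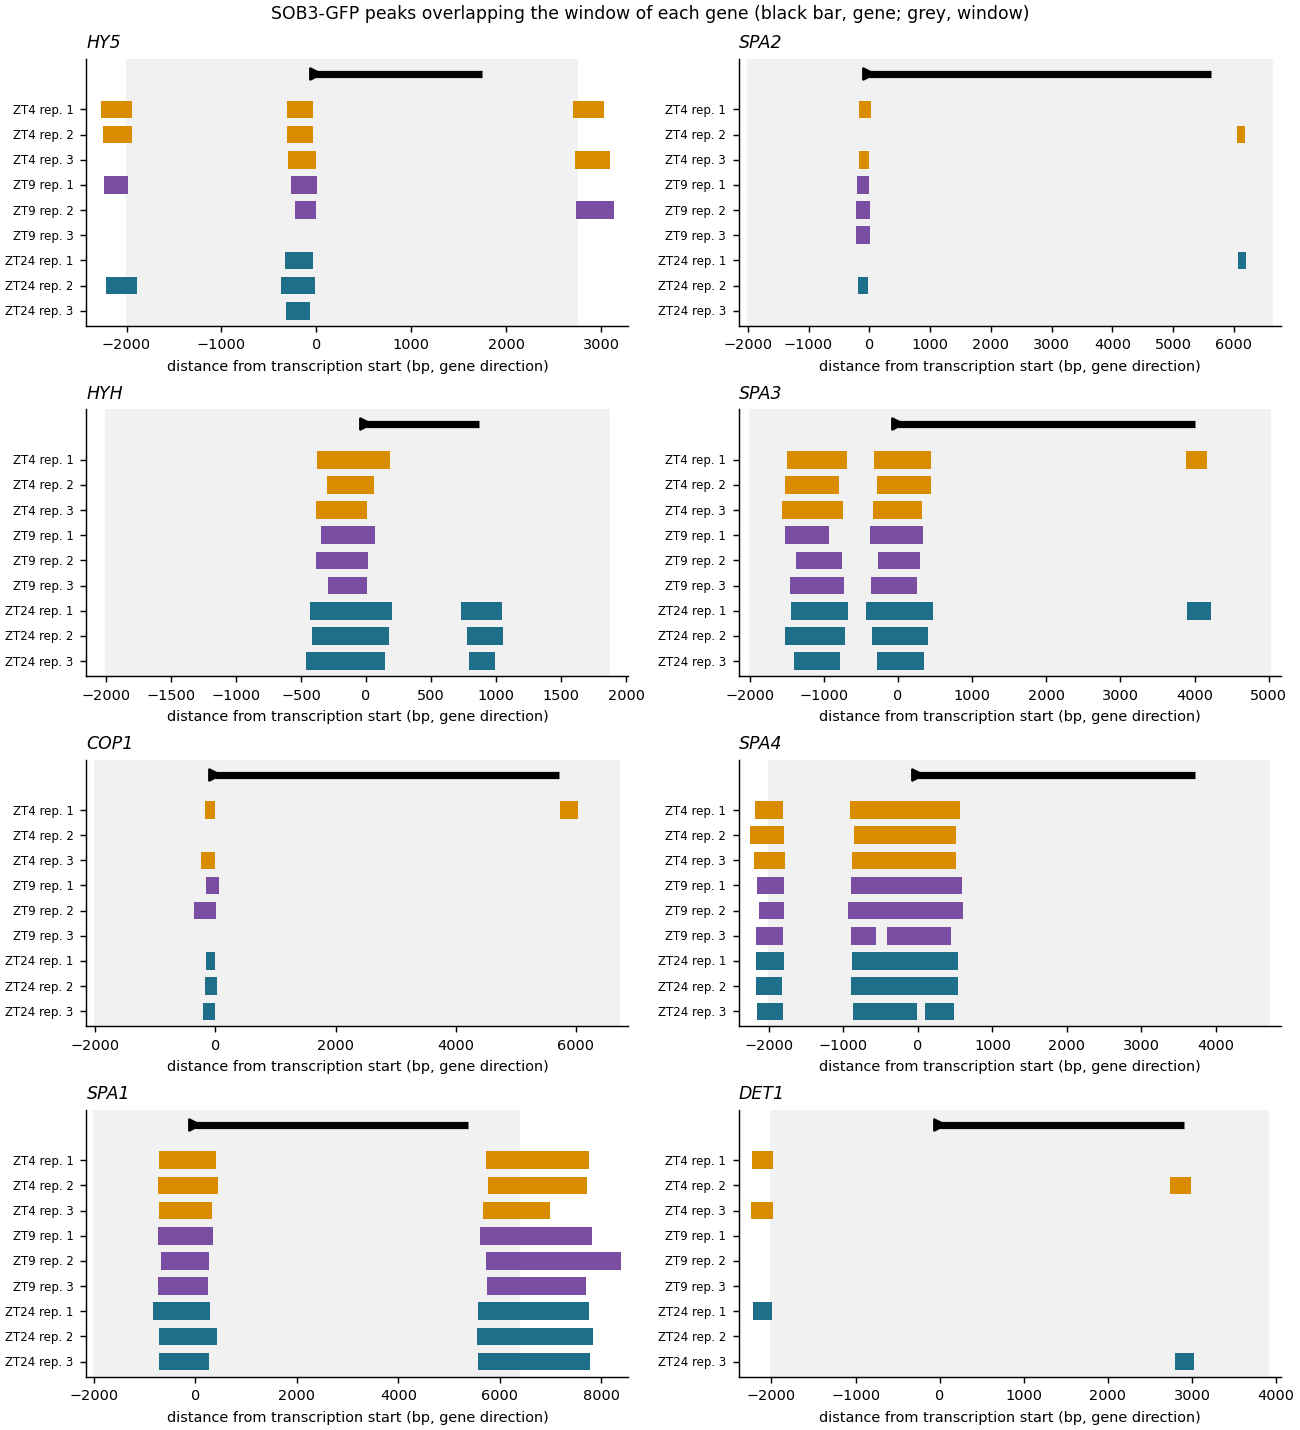
Peaks that overlapped the window of each gene in each of the 9 ChIP samples, plotted by distance from the transcription start in the direction of the gene (bp). The black bar is the gene, the grey area the window, and colours mark ZT4, ZT9 and ZT24. A peak lies at the start of 7 genes, DET1 excepted, and the peak at the end of HYH is present in the 3 ZT24 lists alone.

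The sequences under the promoter peaks are given for the 6 genes on which the comparisons below turn, read from the TAIR10.1 genome of RefSeq on the strand of the gene. Each run covers up to 300 bases around the median summit of the site and leaves out annotated exons. Capitals mark a TCP-like motif (GGACCA or GGCCCA or GGTCCA), a PIF-like motif (CACACG or CACATG or CACGCG or CACGTG) or an AT-rich motif (AAATAAAA or AAATAATA or ATATAAAA or ATATAATA), each searched on both strands.
HY5, chr5:3595084-3595273, minus strand: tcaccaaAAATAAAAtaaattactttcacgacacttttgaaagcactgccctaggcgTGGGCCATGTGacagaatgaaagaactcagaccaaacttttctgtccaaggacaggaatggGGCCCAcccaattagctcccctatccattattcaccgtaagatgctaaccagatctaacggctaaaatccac
HYH, chr3:6023589-6023843, plus strand: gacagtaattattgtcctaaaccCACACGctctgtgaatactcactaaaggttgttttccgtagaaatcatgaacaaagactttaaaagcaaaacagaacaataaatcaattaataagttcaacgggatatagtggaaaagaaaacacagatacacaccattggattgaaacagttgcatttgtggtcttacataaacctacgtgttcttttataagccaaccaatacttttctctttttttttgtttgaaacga
COP1, chr2:13977668-13977880, plus strand: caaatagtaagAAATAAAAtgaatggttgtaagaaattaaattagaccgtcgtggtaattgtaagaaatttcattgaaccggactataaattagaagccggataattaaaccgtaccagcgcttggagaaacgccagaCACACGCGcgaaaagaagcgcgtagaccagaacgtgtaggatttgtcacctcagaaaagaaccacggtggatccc
SPA1, chr2:19027815-19028114, minus strand: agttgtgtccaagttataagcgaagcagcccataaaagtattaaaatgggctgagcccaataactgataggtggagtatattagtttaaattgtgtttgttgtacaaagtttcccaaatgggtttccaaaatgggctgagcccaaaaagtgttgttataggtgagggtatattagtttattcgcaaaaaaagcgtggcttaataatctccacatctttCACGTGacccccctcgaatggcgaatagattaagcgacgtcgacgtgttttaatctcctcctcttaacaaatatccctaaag
SPA3, chr3:5173106-5173190, minus strand: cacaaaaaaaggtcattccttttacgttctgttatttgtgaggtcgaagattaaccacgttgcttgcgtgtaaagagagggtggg
SPA4, chr1:19782738-19783037, plus strand: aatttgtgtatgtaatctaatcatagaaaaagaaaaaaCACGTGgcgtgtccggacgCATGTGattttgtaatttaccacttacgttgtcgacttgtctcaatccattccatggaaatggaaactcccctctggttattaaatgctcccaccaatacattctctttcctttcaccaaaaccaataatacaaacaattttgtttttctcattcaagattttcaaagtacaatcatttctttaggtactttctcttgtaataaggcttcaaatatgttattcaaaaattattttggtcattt
The HY5 run holds 2 TCP-like matches, 1 PIF-like match that overlaps the upstream one of them by 1 base, and 1 AT-rich match. The runs of SPA1 and SPA4 each hold 1 G-box (CACGTG), the core element that HY5 and the PIF factors are known to bind. The COP1 run holds 2 overlapping PIF-like matches, the HYH run 1 PIF-like match, and the SPA3 run, the shortest with 85 bases, no match.

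HY5 lies at 3593335 to 3595073 of chromosome 5, on the minus strand. Its promoter site, at 3595066 to 3595445, had its median summit 161 bp upstream of the transcription start, in the 200 bp that separate HY5 from the end of OCP3. The peak was present in 8 of 9 lists, and its summit moved by at most 52 bp between them. Its fold enrichment was 4.06, 3.24 and 3.90 in the 3 ZT4 lists, 2.14 and 2.88 in the ZT9 lists that had it, and 2.95, 3.10 and 2.41 in the ZT24 lists. Every ZT4 value was above every ZT9 and ZT24 value, while ZT9 and ZT24 overlapped. Its percentiles were 76.1, 72.1 and 76.7 in the ZT4 lists, 17.3 and 56.6 in those ZT9 lists, and 55.0, 59.2 and 30.4 in the ZT24 lists. Replicate 3 of ZT9 had no peak past the threshold there.

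The fold at the HY5 promoter could be divided into its numerator and denominator, since the pileup and the background behind each peak can be solved from its fold and p. Relative to the genome-wide mean of each list, the ChIP pileup was 6.29, 4.56 and 5.36 for ZT4, 4.06 and 5.05 for ZT9, and 5.37, 5.71 and 4.21 for ZT24. These ranges overlapped between all 3 time points. The local background was 1.50, 1.36 and 1.31 times the genome-wide mean for ZT4, 1.86 and 1.70 for ZT9, and 1.78, 1.79 and 1.70 for ZT24. Here all ZT4 values were below the others. The part of the background in the difference of fold was not tested. The rank of this site entered a test only when ZT9 replicate 3 was left out, and it was not called (limma adjusted p = 0.0871).

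**Figure D2:**
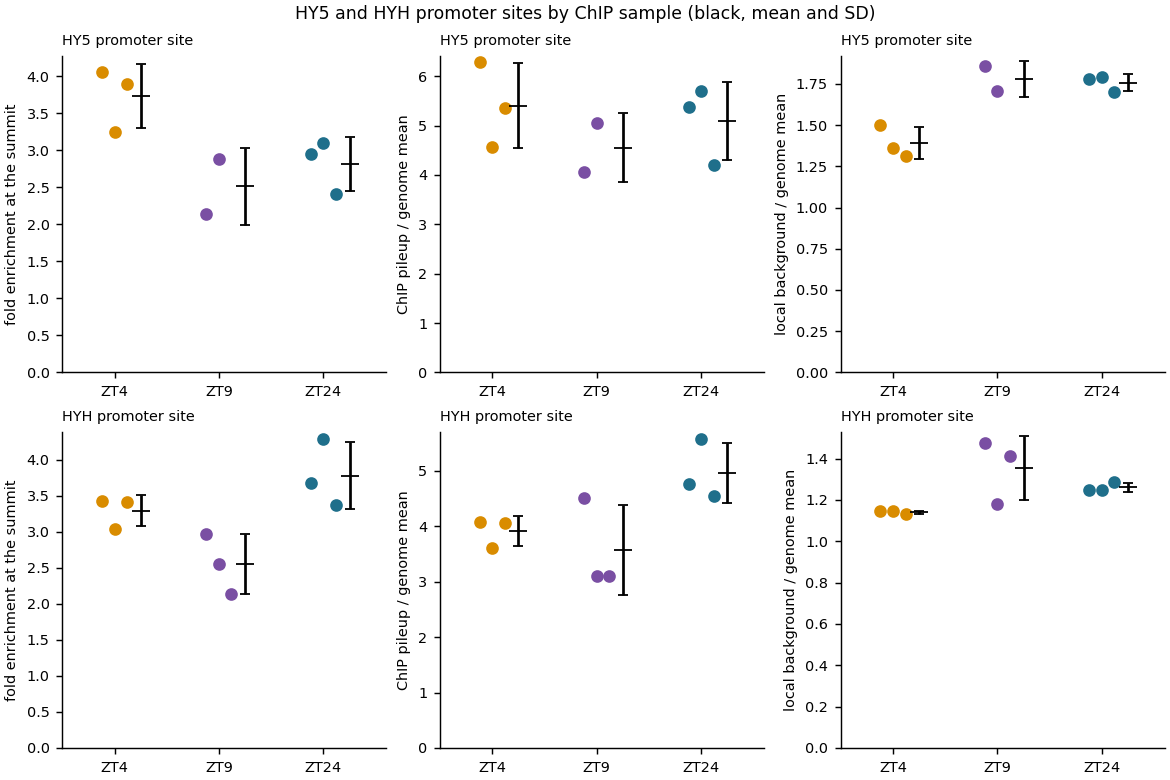
Fold enrichment at the summit, ChIP pileup and local background (both relative to the genome-wide mean of the list) at the promoter sites of HY5 and HYH, for each ChIP sample at ZT4, ZT9 and ZT24. Points are samples and black marks are means with SD. At HY5 the ZT4 samples are highest in fold (3.24 to 4.06) and lowest in background (1.31 to 1.50), and at HYH the ZT9 samples are lowest in fold (2.14 to 2.97).

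Of the other HY5 sites, both touched the window only at its edges. One, at 3591938 to 3592367, was present in all 9 lists with its median summit 1189 bp beyond the end of HY5, inside the neighbouring gene AT5G11250, and only 3 lists had a peak that reached the window, by 3 to 33 bp. It was a weak site, at a mean percentile of 28.4 ± 15.0 (SD, n = 9), and its rank was not called (limma adjusted p = 0.492). The other, at 3596958 to 3597345, was present in 7 lists and lay in the noncoding part of an OCP3 exon, 36 bp upstream of the start of AT5G11280. Without these edge sites HY5 was still bound at all 3 time points, since the promoter peak alone was in at least 2 lists of each.

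The pattern over the 9 lists of the HY5 site downstream, the only one of HY5 in all lists, was most like that of sites at HB22 (AT4G24660, Pearson's r = 0.945), AT5G61170 (0.943) and AT1G21580 (0.930), among sites over 100 kb away. The correlation is over the normal scores of 9 lists, which share their depth and inputs between sites, and it is a description only. These values were picked as the highest over all such sites, and how high they would be by chance was not tested.

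HYH lies at 6023844 to 6024710 of chromosome 3, on the plus strand, and its promoter site at 6023382 to 6024047 was present in all 9 lists. The median summit was 105 bp upstream of the start, between genes, and it moved by up to 217 bp between lists. The fold enrichment was 3.42, 3.04 and 3.41 for ZT4, 2.97, 2.55 and 2.14 for ZT9, and 3.68, 4.28 and 3.37 for ZT24. Over 3 replicates, the mean and SD were 3.29 ± 0.219 for ZT4, 2.55 ± 0.413 for ZT9 and 3.78 ± 0.460 for ZT24. The ZT9 values lay below all others, and the ZT4 and ZT24 ranges overlapped in fold. The percentiles were 64.1, 66.7 and 67.5 for ZT4, 54.7, 42.7 and 25.4 for ZT9, and 73.0, 81.8 and 67.6 for ZT24.

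In each list, the fold of each site was ranked among the 13251 sites present in all lists and turned into a normal score. These scores are not the percentiles above, which are over all peaks of a list. A unit is 1 standard deviation of the scores of a list. The 3 time points were compared with limma over these sites. Of the 8 sites of these genes that could be tested, 1 was called, the HYH promoter site, and 2 had an unadjusted p under 0.05, while 14.6% of all tested sites were called. The HYH rank differed between time points with an adjusted p of 0.0299 in the moderated F test of limma. It was higher at ZT24 than at ZT9 by 1.04 ± 0.229 normal-score units (SE, limma adjusted p = 0.0234). The difference of ZT9 minus ZT4 was −0.71 ± 0.229 (limma adjusted p = 0.0765) and that of ZT24 minus ZT4 was 0.33 ± 0.229 (0.414), and neither passed the test. Among 14388 genes with a peak in every list, ranked by their best peak, HYH was likewise the 1 called of the 4 that could be tested (limma adjusted p = 0.0266), beside 13.9% of all genes. By gene, SPA1, SPA3 and SPA4 had limma adjusted p-values of 0.573, 0.820 and 0.446.

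Relative to the genome-wide mean, the pileup at the HYH promoter was 4.08, 3.61 and 4.06 for ZT4, 4.52, 3.11 and 3.10 for ZT9, and 4.77, 5.57 and 4.54 for ZT24, so that every ZT24 value was above every other value, while ZT4 and ZT9 overlapped. The background was 1.15, 1.15 and 1.13 for ZT4, 1.47, 1.18 and 1.41 for ZT9, and 1.25, 1.25 and 1.29 for ZT24. With the pileup ranked in place of the fold, the HYH difference of ZT24 minus ZT9 was 1.01 ± 0.271 normal-score units (SE), close to the 1.04 ± 0.229 by fold. Over all time points the site then had a limma adjusted p of 0.248 (unadjusted 0.0120), and limma called 0 of the 8 sites (3 had an unadjusted p under 0.05), beside 0.143% of all tested sites. With the −log10 p ranked, that HYH difference was 1.03 ± 0.228 and the limma adjusted p 0.0819, beside 1.85% of all sites and 1.46% of all genes called. The call thus depended on the measure ranked, while the ZT24 minus ZT9 difference hardly moved in normal-score units. Each measure was ranked on its own, so equal units need not mean equal changes of binding. The other 2 differences did move. By pileup, ZT9 minus ZT4 was −0.42 ± 0.271 (SE), against −0.71 by fold, and ZT24 minus ZT4 was 0.58 ± 0.271, against 0.33. With 1 input per time point, counting error of an input may be shared by the 3 replicates of a time point and would not enter their spread, and its part in the call was not tested. Without replicate 2 of ZT4, replicate 2 or 3 of ZT9, or any 1 replicate of ZT24, the adjusted p lay between 0.0516 and 0.0888.

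A second HYH peak, at 6024575 to 6024897, was found in the 3 ZT24 lists and in no other list. It lay across the end of HYH and the start of RBL14, a rhomboid-like protease gene on the same strand that begins 84 bp further on, with its median summit 13 bp inside the HYH end and 98 bp upstream of RBL14. Over the whole genome 0.226% of sites were found in all ZT24 lists and in none of the others, and among the 18 sites described here it was the only such site. Its fold enrichment was 2.00, 2.40 and 2.71 and its percentile 12.2, 32.2 and 46.2 in the 3 ZT24 lists, which puts it among the weaker peaks. Absence from the ZT4 and ZT9 lists says that no peak passed the threshold there.

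With this peak, the number of bases of the HYH window that peaks covered was 562, 366 and 392 for ZT4, 418, 405 and 303 for ZT9, and 950, 868 and 813 for ZT24. The ZT24 values were above all others, and ZT4 and ZT9 overlapped. In an exact permutation test of the F ratio over the 280 ways to part the 9 samples, the unadjusted p was 0.0214, where the smallest possible is 0.00357. It was not called when adjusted over all genes with a peak (adjusted p = 0.384 by permutation), and 10.9% of those genes had an unadjusted p under 0.05. HYH was the only 1 of the 8 genes with such a value, and the 7 others had exact permutation p-values from 0.0893 (SPA2) to 0.893 (COP1).

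**Figure D3:**
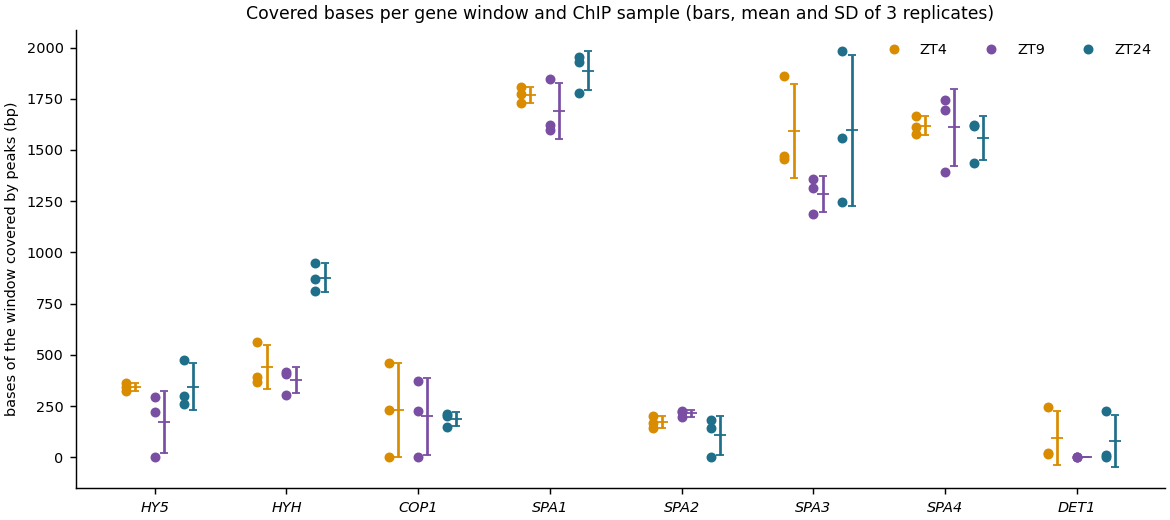
Bases of each gene window covered by peaks (bp) in each ChIP sample at ZT4, ZT9 and ZT24, with the mean and SD of 3 replicates beside the points. The ZT24 samples of HYH, at 813 to 950 bp, lie above its ZT4 and ZT9 samples (303 to 562 bp), and in no other gene does a time point stand apart from both others.

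COP1 lies at 13977881 to 13983609 of chromosome 2, on the plus strand, and shares its promoter with AGO6, an ARGONAUTE gene on the other strand whose start is 359 bp away. The promoter site at 13977516 to 13977945 had its median summit 63 bp upstream of COP1. It was present in 7 of 9 lists, at least 2 at each time point, and missing from ZT4 replicate 2 and ZT9 replicate 3. The fold enrichment was 2.08 and 2.67 for ZT4, 2.59 and 2.55 for ZT9, and 2.25, 2.63 and 2.20 for ZT24, with overlap between all time points. The percentiles ran from 13.5 to 43.5, so that in every list that had it more peaks lay above it than below it. A peak with its summit 116 bp beyond the gene end, at 13983619 to 13983913, appeared in ZT4 replicate 1 alone, with a fold of 2.02.

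The 4 SPA genes code for WD-repeat proteins with a kinase-like domain that bind COP1. They fell into SPA1 and SPA3, whose peaks ranked near the top of every list, SPA4 with high ranks, and SPA2 with low ranks. The mean percentile of the best peak was 96.4 ± 1.58 for SPA1, 94.1 ± 2.31 for SPA3, 78.9 ± 8.39 for SPA4 (SD, n = 9 each) and 23.5 ± 17.0 for SPA2 (SD, n = 8). The lowest SPA1 and SPA3 values, 93.2 and 91.2, were above the highest SPA2 value of 49.5, and SPA4 (64.6 to 91.7) lay between them in every list that had an SPA2 peak. For SPA1 the best peak was its promoter peak in the ZT4 and ZT24 lists. In the ZT9 lists it was the one downstream, whose summit lay beyond the window. The SPA1 promoter site alone had a mean percentile of 94.3 ± 3.84 (SD, n = 9) and a lowest value of 85.9. SPA1 and SPA3 overlapped in range. Among the 21865 genes with a peak in at least 1 list, SPA1 stood at the 96.1st percentile by this mean, SPA3 at the 93.3rd, SPA4 at the 75.0th and SPA2 at the 15.7th.

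SPA1 lies at 19022154 to 19027528 of chromosome 2, on the minus strand. Its promoter site, at 19027079 to 19028373, had its median summit 437 bp upstream of the start, between SPA1 and the divergent gene AT2G46360, whose start is 394 bp from that summit. The fold enrichment was 7.65, 6.11 and 5.71 for ZT4, 4.55, 6.11 and 4.40 for ZT9, and 6.42, 6.11 and 6.35 for ZT24. The lists of ZT9 replicates 1 and 3 were lowest and ZT9 replicate 2 lay among the other time points, and the rank was not called (limma adjusted p = 0.445). The local background was 1.45 to 1.57 times the genome-wide mean at ZT4, 1.76 to 2.24 times at ZT9 and 1.52 to 1.68 times at ZT24, so that all ZT9 values were above the others. The pileup relative to that mean was 9.18 to 11.9 for ZT4, 9.70 to 11.1 for ZT9 and 10.1 to 11.1 for ZT24, with overlap. The part of the background in the lower ZT9 folds was not tested. In ZT4 replicate 3 the summit lay 29 bp inside the gene, while in the other 8 lists it lay 405 to 455 bp upstream.

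Beyond the end of SPA1 lay a wide site at 19019088 to 19021969, whose strongest summit was 2092 bp past the gene end and 698 bp upstream of AGP16, an arabinogalactan protein gene. All lists had a peak of it that reached into the window, by 610 to 816 bp. Its fold enrichment was 6.09, 5.26 and 4.85 for ZT4, 6.67, 6.96 and 5.35 for ZT9, and 6.35, 5.80 and 6.11 for ZT24. The percentiles were 93.1, 94.4 and 87.7 for ZT4, 97.2, 98.5 and 96.3 for ZT9, and 95.6, 93.6 and 95.8 for ZT24, so that every ZT9 value was above every other value. The rank had an unadjusted p of 0.0427 and was not called (limma adjusted p = 0.130). In ZT4 replicate 3 the site was split, and the piece inside the window had a fold of 3.95.

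SPA3 lies at 5169095 to 5173105 of chromosome 3, on the minus strand, and had a pair of sites in all 9 lists. The stronger, at 5172637 to 5173535, sat on the transcription start with its median summit 64 bp inside the gene, in a noncoding part of an exon. Its fold enrichment was 6.41, 5.64 and 5.34 for ZT4, 5.91, 5.53 and 4.59 for ZT9, and 5.83, 7.92 and 5.25 for ZT24, with percentiles from 91.2 to 98.7. The time points overlapped, and the rank was not called (limma adjusted p = 0.823). The summit moved by 50 bp at most.

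The second SPA3 site, at 5173780 to 5174666, lay 1079 bp upstream and closer to the start of AT3G15359. Its fold enrichment was 4.81, 3.21 and 3.06 for ZT4, 2.89, 3.25 and 3.16 for ZT9, and 4.61, 4.51 and 3.98 for ZT24. All ZT24 values were above all ZT9 values, and ZT4 spanned both. The difference of ZT24 minus ZT9 was 0.71 ± 0.290 normal-score units (SE), which did not pass the test (limma adjusted p = 0.142, and 0.195 over all time points). One more site, at the end of SPA3 where it overlaps AT3G15350, was found in 1 list of ZT4 and 1 of ZT24.

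SPA4 lies at 19783185 to 19786902 of chromosome 1, on the plus strand. Its promoter site, at 19782248 to 19783791, was the widest promoter site of the 8 genes, at 1544 bp, and reached from upstream sequence across the transcription start. The fold enrichment was 5.78, 3.44 and 4.20 for ZT4, 4.24, 3.30 and 2.65 for ZT9, and 4.54, 4.32 and 3.79 for ZT24, with overlap between all time points, and the rank was not called (limma adjusted p = 0.285). The median summit lay 297 bp upstream, but single lists placed it from 727 bp upstream to 363 bp inside the gene. The peak was split in ZT9 replicate 3 and ZT24 replicate 3. A second site, at 19780928 to 19781398, lay 1955 bp upstream of SPA4 and 58 bp upstream of AT1G53080. Its fold enrichment was 3.16, 2.76 and 2.77 for ZT4, 4.45, 3.20 and 2.90 for ZT9, and 3.67, 2.46 and 2.87 for ZT24, with overlap between all time points. In percentiles, ZT9 (64.6 to 84.8) lay above ZT4 (47.7 to 57.8) and both overlapped with ZT24 (35.1 to 72.7), and the rank was not called (limma adjusted p = 0.167).

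SPA2 lies at 6771605 to 6777225 of chromosome 4, on the plus strand. The promoter site at 6771386 to 6771633 was present in 6 lists, 2 at ZT4, 3 at ZT9 and 1 at ZT24, with its median summit 52 bp upstream of the start. The fold enrichment was 2.43 and 2.37 at ZT4, 2.82, 1.88 and 1.74 at ZT9, and 2.27 in the ZT24 list that had it. A second site, at 6777652 to 6777812, covered the start of AT4G11120 and appeared in 1 list of ZT4 and 1 of ZT24. Without that second site, which is nearer to AT4G11120, SPA2 was bound at ZT4 and ZT9 only.

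**Figure D4:**
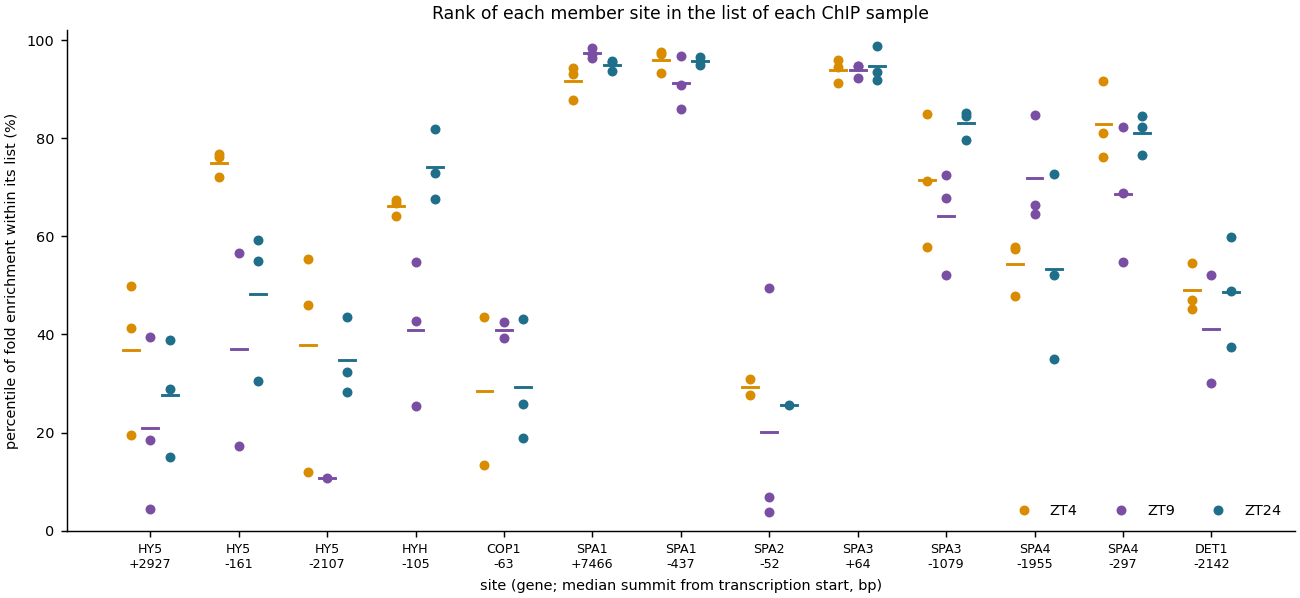
Percentile of the fold enrichment of a site within its list, for the 13 sites found in at least 6 lists, in each ChIP sample at ZT4, ZT9 and ZT24. Points are samples, short lines are means, and sites are named by gene and by the distance of the median summit from the transcription start. The promoter site of SPA1 (−437) and the SPA3 site on the transcription start (+64) stay above 85 in all samples. The ZT9 samples of the HYH promoter site lie below its other samples.

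DET1, at 6346411 to 6349314 of chromosome 4 on the plus strand, differed from the other 7 genes in that no list had a peak at its start. A site at 6344166 to 6344429, found in 8 lists, had its median summit 2142 bp upstream of DET1 and 32 bp upstream of AT4G10170, and touched the DET1 window in 3 lists by 9 to 19 bp. A peak at the end of DET1, at 6349154 to 6349431 in a noncoding part of its last exon, was found in ZT4 replicate 2 with a fold of 2.23 and in ZT24 replicate 3 with a fold of 2.49. By the transcription start nearest to the centre of each peak, 0 lists assigned a peak to DET1, against 9 lists for HYH, SPA1, SPA3 and SPA4, 8 for HY5, 7 for COP1 and 6 for SPA2. By that assignment, 6 of the 8 genes, all but SPA2 and DET1, were bound at all 3 time points, beside 44.3% of all genes. By window, DET1 had a peak in 5 lists, while 20.3% of all genes had none in any list.

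By level, the 8 genes thus ran from SPA1 and SPA3 through SPA4, HYH and HY5 to DET1, COP1 and SPA2. Mean percentiles of the best peak were 60.4 ± 17.1 for HYH (SD, n = 9), 55.4 ± 21.5 for HY5 (n = 8), 41.4 ± 8.06 for DET1 (n = 5) and 32.4 ± 12.7 for COP1 (n = 7). The place of DET1 rests on the 3 lists in which the peak at AT4G10170 touched its window, at 45.2, 47.1 and 48.8, while its peaks at the gene end were at 30.3 and 35.5, within the range of COP1. HYH and HY5 overlapped widely, as did DET1, COP1 and SPA2. Of the 8 genes, 5 were above the median of all genes with a peak, which was 53.8. The 18 sites had a median of their mean percentiles of 51.2, against 35.1 over all sites, and 8 of the 18 sites were in all 9 lists, against 46.8% of all sites.

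At the summits, the 18 sites were searched for the same motifs in 300 bp windows centred on the strongest peak of each site. A TCP-like motif was found at 8 of 18 sites (44.4%), against 34.1% of all sites, and a PIF-like motif at 8 of 18 (44.4%), against 33.1%. A G-box was found at 2 of 18 (11.1%), against 10.5%, and these were the promoter sites of SPA1 and SPA4. The SPA4 window was centred 719 bp upstream of the start, while the printed SPA4 run covers 447 to 148 bp upstream. The G-box counted for SPA4 is thus not the one marked in that run. An AT-rich motif was found at 9 of 18 (50.0%), against 49.7%. In 100 bp windows the PIF-like share was 11.1% (2 of 18), against 15.2% of all sites, and the TCP-like share 33.3% (6 of 18), against 19.8%. The AT-rich share there was 33.3% (6 of 18), against 25.4%, and the G-box share 5.6% (1 of 18), against 4.7%. The median GC content of the windows was 32.5%, against 32.3% over all sites. All 3 HY5 sites held a TCP-like match, and no SPA3 site held a TCP-like or PIF-like match. The window at the HYH promoter held none of the 4 motifs, since the strongest HYH peak had its summit 35 bp upstream of the start and the CACACG of the printed run lies outside that window.

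Other genes of the pathway were taken from a pair of fixed lists. The first had 16 genes of the machinery that works with COP1 and DET1, namely CUL4, DDB1, RBX1, COP10, DDA1 and the COP9 signalosome, which removes the NEDD8 modifier from cullins. Of these, 11 were bound at all 3 time points (61.3% of all genes were) and 9 in all 9 lists (52.4% of all genes). The median of their mean percentiles was 52.5, against 53.8 over all genes with a peak. CSN4 ranked highest, at 95.8 ± 3.39 (SD, n = 9), and RBX1A lowest, at 18.8 ± 14.8 (n = 7). DDB1A, which codes for the adaptor of CUL4, had no peak in any list, and its homologue DDB1B had a peak in 1. Of the 9 genes tested, DDA1, which codes for a partner of DET1 (limma adjusted p = 0.0151), and the scaffold gene CUL4 (0.0298) were called. Both ranked higher at ZT24 than at ZT9, DDA1 by 1.29 and CUL4 by 0.85 normal-score units (limma adjusted p = 0.0105 and 0.0222). DDA1 was also lower at ZT9 than at ZT4, with a difference of −0.84 (limma adjusted p = 0.0483). For CUL4 that difference was −0.60 and did not pass the test (limma adjusted p = 0.0687).

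The second list had 10 genes known to respond to HY5, for flavonoid synthesis, protection from strong light and feedback on the UV-B receptor. Of these, 9 were bound at all 3 time points and 8 in all 9 lists, against the same 61.3% and 52.4% of all genes, and the median of their mean percentiles was 71.1, against 53.8. RUP2, a repressor of the UV-B receptor, ranked highest at 91.7 ± 7.74 (SD, n = 9), and ELIP2, an early light-induced protein gene, lowest at 16.1 ± 11.3 (n = 4). Of the 8 genes tested, RUP2 (limma adjusted p = 0.0214), F3H (0.0388) and FLS1 (0.0488), both of flavonoid synthesis, were called. RUP2 was lower at ZT9 than at ZT4, with a difference of −1.33 (limma adjusted p = 0.0160), and F3H and FLS1 were higher at ZT24 than at ZT9, by 1.07 and 0.79 (limma adjusted p = 0.0282 and 0.0360). With the pileup ranked in their place, limma called 0 of these 5 genes (adjusted p from 0.372 for RUP2 to 0.957 for CUL4, with 2 of the 5 at an unadjusted p under 0.05), beside 0.202% of all genes. The calls in both lists stand beside the 13.9% of all genes called.

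**Figure D5:**
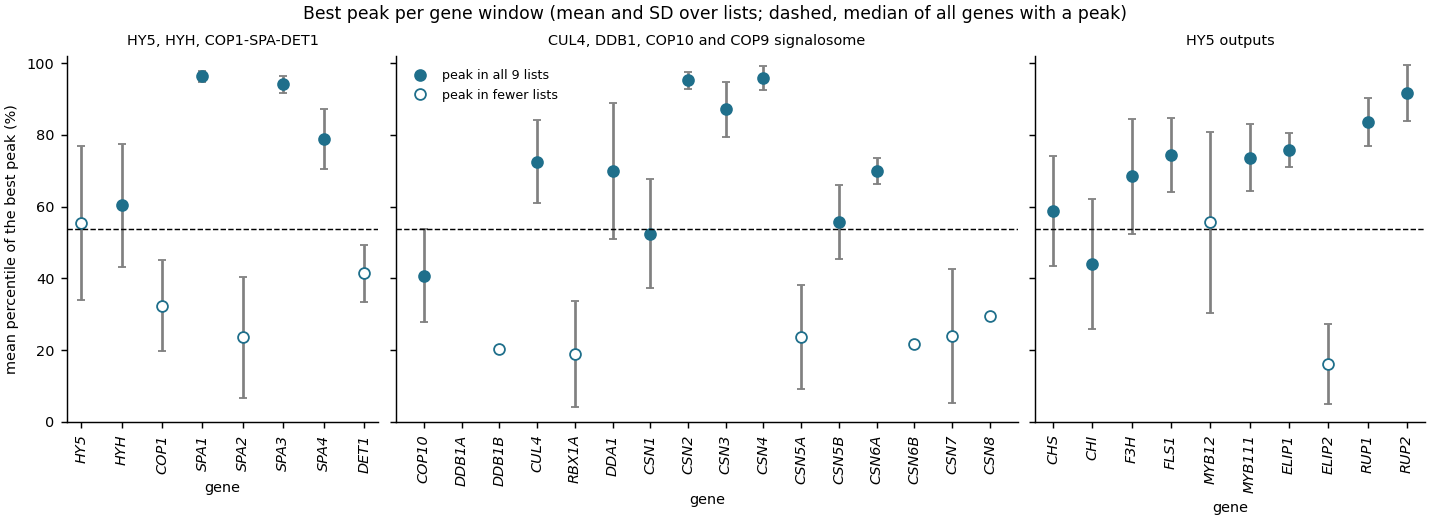
Mean percentile of the best peak in the window, with SD over the lists that had one, for the 8 genes, for 16 genes of the CUL4, DDB1, COP10 and COP9 signalosome list and for 10 HY5 output genes. Filled points had a peak in all 9 lists and open points in fewer, and the dashed line is the median of all genes with a peak (53.8). SPA1 (96.4) and SPA3 (94.1) are highest of the 8 genes, CSN4 (95.8) of the 16 genes and RUP2 (91.7) of the 10 output genes. DDB1A has no point because no list had a peak.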

How the data were processed

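The authors aligned the reads to TAIR10 (Bowtie, unique alignments only) and ran MACS2 on each replicate against an input. Versions, and which input served which list, are not given in the sources used here. The deposited lists give per peak a fold enrichment (a ratio of pileup to background), its −log10 p-value and −log10 q-value, and a summit. The lowest −log10 q per list was 1.30 to 1.33. Unique mapping leaves repeats without reads. Total reads are not in the lists. The lowest background of a list, its genome-wide mean pileup, was 12.1 to 15.8 fragments per base.

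Peaks were placed with the RefSeq annotation of TAIR10.1, whose nuclear chromosomes are those of TAIR10. Sites were peaks of all lists merged at 1 bp of overlap, and a site's value in a list is that of its strongest peak. Pileup and background were solved from fold = (pileup + 1) / (background + 1) and the Poisson p. All peaks fitted the deposited −log10 p within 0.001. Ranks of fold within a list, taken among the tested sites or genes, became normal scores. On these, limma 3.58.1 (R 4.3.3) gave a moderated F test and later-minus-earlier contrasts, Benjamini-Hochberg adjusted over all sites or genes at 0.05. Covered bases were tested with an exact permutation test, two-sided by construction. Both were tested on simulated data. Of the named genes, all 8 members and their sites were described. Of the other lists, genes called, with no peak, or at the top or bottom by mean percentile were named (DDB1B was added after its values were seen). Members, lists and tests were chosen with earlier results of these data known. ZT24 samples are titled ZT24, and their harvest label says ZT0.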

Additional observations from a re-analysis of the deposited data

How the results depend on the processing

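Of the 8 genes, 7 were bound at all 3 time points. The number was 3 at a −log10 q of at least 10 (34.0% of all genes), 4 with all 3 replicates needed (52.4%), and 5 to 7 when 1 replicate was left out (56.5% to 60.4%, against 61.3% with all; 5 without replicate 1 or 2 of ZT9, when HY5 and COP1 were lost). The 1 called site of these genes (HYH) and the 1 called gene became 0 when ranked by −log10 p (HYH limma adjusted p = 0.0819 by site and 0.0862 by gene, with 1.85% of all sites and 1.46% of all genes called), 0 when ranked by recovered pileup (0.248 and 0.315, with 0.143% and 0.202% called) and 0 at a −log10 q of at least 5, where HYH was not tested. The HYH site difference of ZT24 minus ZT9 was 1.03 by −log10 p and 1.01 by pileup, against 1.04 by fold. That of ZT9 minus ZT4 was −0.61 and −0.42, against −0.71, and that of ZT24 minus ZT4 was 0.41 and 0.58, against 0.33. Each count was 0 to 1 with 1 replicate left out. The HYH adjusted p was 0.0404 to 0.0888 by site and 0.0346 to 0.0836 by gene. On a log2 scale, and with summits joined within 150 bp, HYH stayed called (0.0245 and 0.0273). The PIF-like share of sites was 11.1% in 100 bp windows (15.2% of all sites). The others there were 33.3% for TCP-like (19.8%), 33.3% for AT-rich (25.4%) and 5.6% for the G-box (4.7%).

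With the replicate number as a block, HYH stayed called (limma adjusted p = 0.0493 by site and 0.0451 by gene), 1400 sites were called in place of 1930, and the permutation p of HYH covered bases was 0.0556 by exact permutation within replicate numbers. Same-numbered samples had correlations of their deviations between −0.045 and 0.058, within the −0.107 to 0.079 of samples with other numbers. No shared effect of the number was thus seen, but this cannot show whether same-numbered samples were grown or processed together. For covered bases, p fell below 0.05 for SPA1 without ZT9 replicate 1 (0.0107, exact) and for SPA2 without ZT24 replicate 2 (0.0107, exact). For covered bases, the block, the stricter threshold and leaving out replicates were chosen after seeing the data. A site missing from 1 list could not be tested, which left out 10 of 18 sites, the HY5 promoter among them. Depth per list is known only through the background. Tested only when 1 replicate was left out, the upstream DET1 site (limma adjusted p = 0.886) and the SPA2 best peak (0.434) were not called.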
